A study of Mus musculus with 2 samples.

Results

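The proteasome is the large protease complex of the cytosol and nucleus that degrades proteins tagged with ubiquitin. Its subunits are encoded by the Psm genes, and expression of these genes was compared between mouse primary hepatocytes given pregnenolone 16α-carbonitrile (PCN) and hepatocytes given only the solvent. The genes were chosen by symbol, as those whose name starts with Psma, Psmb, Psmc, Psmd or Psme followed by a digit. This rule found 37 of the 15644 named genes in the deposited table. Of the 37, 35 encode subunits, activators or base chaperones of the proteasome, and 2 (Psmc3ip and Psme3ip1) encode partner proteins that share the name stem. A gene counted as measured when its intensity reached 32 in at least 1 array, which held for 33 of the 37 and for 6449 of all named genes. The dimmest gene inside this limit was Psmb9, at 94.5 with DMSO and 83.2 with PCN, and the brightest outside it was Psmd9, at 16.9 and 17.7. A further 8 proteasome genes (Psma3, Psma4, Psma5, Psmb3, Psmb5, Psmc1, Psmd2 and Psme2) were not analysed here.

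The steroid PCN is a ligand of the rodent pregnane X receptor, a nuclear receptor of drug metabolism, and dimethyl sulfoxide (DMSO) was its vehicle. Hepatocytes of a male C57BL/6 mouse, 9 weeks old, were kept in culture for 24 h and then received DMSO or 10 µmol/l PCN for 12 h. RNA of 3 samples was pooled in each group and put on 1 one-colour Affymetrix array, so there were 2 arrays, 1 per group, both from unmodified cells of the same strain, sex and age. With no replicates, every value below is that of a single array and no test could be made; "higher" and "lower" are statements on this pair of arrays. Albumin (Alb), the defining hepatocyte product, was at 21685 with DMSO and 21383 with PCN, and 9 of 10 hepatocyte markers were measured. The exception was Tat, under the limit in both arrays. Of the 9, 3 were higher and 6 lower with PCN, with values on the log2 scale from -1.12 to 0.08. The lowest were Ttc36, at 74.7 and 34.3 (-1.12), and the liver transcription factor gene Hnf4a, at 529 and 457 (-0.21), while the others lay between -0.15 and 0.08. Their part in the proteasome values was not tested. Cyp3a11, the main target enzyme of the pregnane X receptor, was at 8519 with DMSO and 15919 with PCN. Cyp2b10, a second drug-inducible enzyme, was under the limit with DMSO, at 25.9, and at 35.4 with PCN, so it was at least 1.11-fold higher. The receptor's own gene Nr1i2 read 71.9 and then 70.1.

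The proteasome is built from a barrel-shaped core particle and a regulatory particle at its ends. The core stacks outer rings of alpha subunits, which gate the entrance, on inner rings of beta subunits, which carry the proteolytic sites. The regulatory particle has a base with a ring of ATPases that unfold the substrate and a lid that removes its ubiquitin chain. In cells exposed to interferon, the catalytic beta subunits can be replaced by the immunoproteasome forms, whose cleavage products favour display on MHC class I molecules.

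Proteasome genes were nearly at the same level in both arrays. None of the 33 measured genes differed by 0.32 or more on the log2 scale, a ratio of 5 to 4. Of all measured genes 11.4% reached this size, 5.27% higher and 6.17% lower with PCN. None reached 1.5-fold or 2-fold, sizes that 1.94% and 0.326% of all measured genes reached. The log2 difference, PCN minus DMSO, ran from -0.18 for Psmb9 to 0.15 for Psma6, with a median of 0.07 against 0.03 for all measured genes. PCN was higher in 21 of the 33 (63.6%) and lower in 12, where 57.6% of all measured genes were higher. At the smaller size of 1.1-fold there were 5 genes (15.2%), against 44.4% of all measured genes. The 3 higher were Psma6, Psmd7 and Psmc4, where 25.6% of all measured genes were higher by that size, and the 2 lower were Psmb9 and Psmb2, where 18.8% were lower. The bacterial and phage control probe sets, which are added from outside and do not carry differences between cultures, had a standard deviation of 0.10 on the same scale over 40 probe sets, with the farthest at -0.33. Of the proteasome genes, 9 of 33 lay beyond this standard deviation, as did 56.1% of all measured genes, and none lay beyond the farthest control, as 10.3% of all measured genes did.

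**Figure D1:**
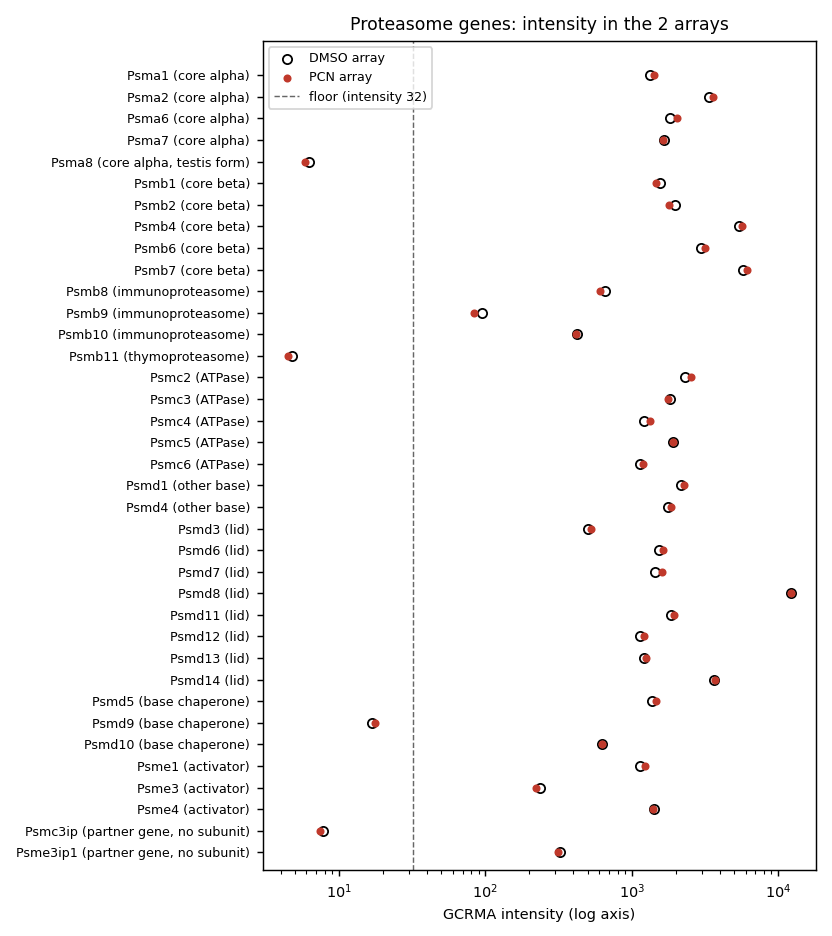
Intensity (log axis) of the 37 proteasome genes in the DMSO array (open circles) and the PCN array (red), ordered by class, with the limit of 32 as a dashed line. The symbols of a gene nearly coincide throughout, and Psma8, Psmb11, Psmd9 and Psmc3ip lie left of the limit.

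**Figure D2:**
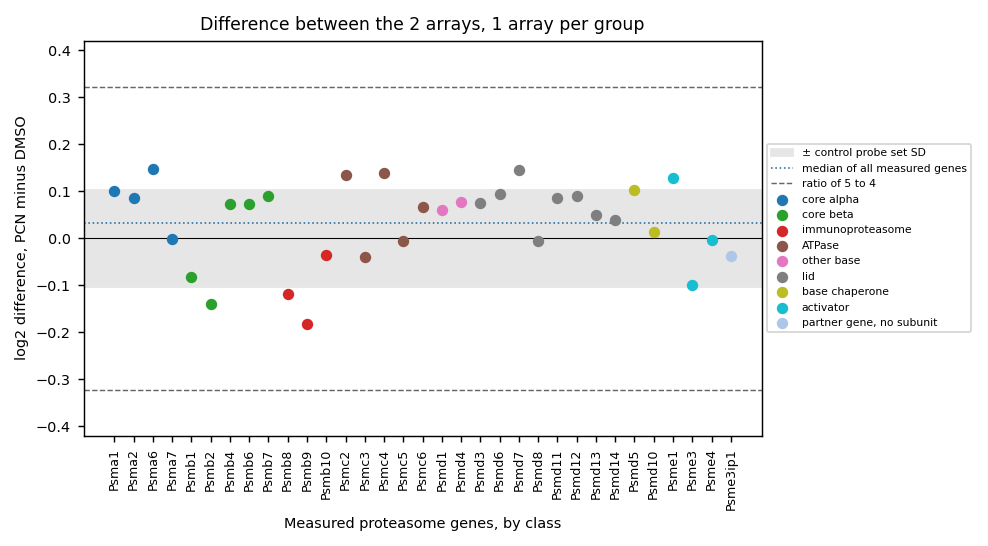
Log2 difference, PCN minus DMSO, of the 33 measured proteasome genes (1 array per group, so points have no error bars), coloured by class. The grey band is the control probe sets' standard deviation of 0.10 either side of 0, the dotted line is the median of all measured genes and the dashed lines mark a log2 difference of 0.32 either way. All points lie between the dashed lines, and the 3 immunoproteasome genes lie below 0.

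The narrow spread went with a bright signal. Proteasome differences had a standard deviation of 0.09 over the 33 genes, against 0.23 over all measured genes. Of the 33, 26 were at an intensity of 1000 or more in both arrays, as were 1043 genes in all. Among those 1043 genes the standard deviation was 0.14, 59.4% were higher with PCN, 2.78% differed by 0.32 on the log2 scale and 26% by 1.1-fold. Of the 26 bright proteasome genes, which had a standard deviation of 0.07, 19 (73.1%) were higher, 4 (15.4%) differed by 1.1-fold and none by 0.32. The part that brightness has in the narrow spread was not tested.

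**Figure D3:**
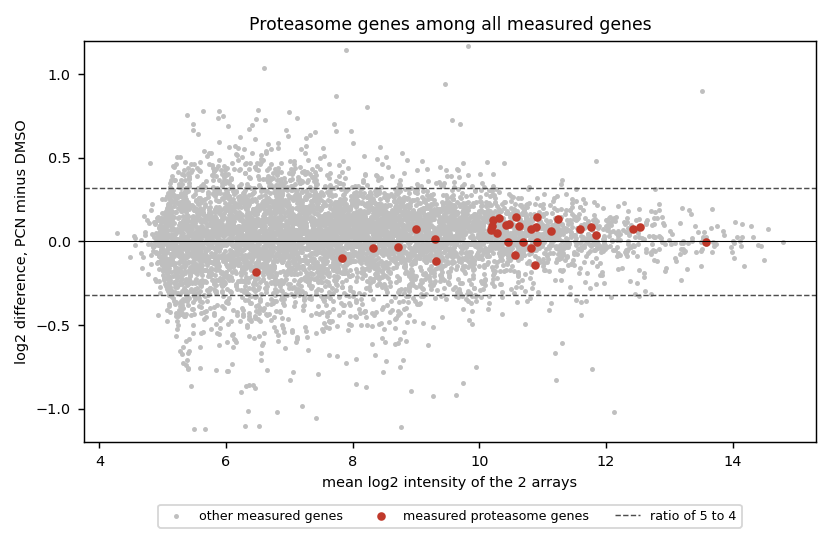
Log2 difference, PCN minus DMSO, against the mean log2 intensity of the 2 arrays for all measured genes (grey) and the 33 measured proteasome genes (red), with dashed lines at 0.32 either way. Proteasome genes sit mostly in the bright range, where grey points also spread less. The axis stops at 1.2 on either side, which leaves out 9 other genes.

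The alpha ring of the core was higher with PCN in 3 of its 4 measured genes, all by small amounts. Of all measured genes, 57.6% were higher. Psma6 had an intensity of 1827 with DMSO and 2023 with PCN, a log2 difference of 0.15 and the largest of any proteasome gene in that direction. Psma1 went from 1323 to 1419 (0.10) and Psma2 from 3372 to 3576 (0.08). Psma7 stood at 1649 and 1648, the closest match of any proteasome gene between the arrays. Psma8, the testis form of an alpha subunit, was under the limit in both arrays, at 6.26 and 5.85.

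The beta ring was mixed, with 3 of 5 measured standard genes higher and 2 lower. Of the catalytic subunits, Psmb6, which carries the caspase-like site, was at 2993 with DMSO and 3149 with PCN, and Psmb7, which carries the trypsin-like site, was at 5772 and 6138. Their log2 differences were 0.07 and 0.09. The structural beta subunit Psmb4 stood at 5377 and 5657, also 0.07 higher. The lower genes were the structural subunits Psmb2, from 1984 to 1800 (-0.14), and Psmb1, from 1550 to 1463 (-0.08). Over the 9 standard core genes, alpha and beta together, 6 were higher and 3 lower (median 0.07). Of all measured genes, 57.6% were higher (median 0.03).

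Promoter sequences are shown for the genes at the edges of the range, to put letters beside the values. RefSeq windows (build GRCm38.p6) covering the 250 bases before an annotated gene start were found for 30 of the 37 genes, 33 windows in all, some genes having more than 1 start. Psmd7 and Psmb2 had no entry. The windows were searched on both strands for 6 motifs, with capitals marking each match. They were the antioxidant response element core TGANNNNGC, bound by the NRF factors that control proteasome genes, the CCAAT box CCAAT, the ETS core CCGGAAG, the IRF core (GAAA, any 2 bases, GAAA), the STAT core TTCNNNGAA and the direct repeat of pregnane X receptor sites (AGNTCA, any 3 bases, AGNTCA). Overlaps between different motifs were allowed. Psma6 has windows at chr12:55383972-55384221 and chr12:55398575-55398824, both on the plus strand, and they are shown because Psma6 was the highest of the proteasome genes.
Psma6, first start: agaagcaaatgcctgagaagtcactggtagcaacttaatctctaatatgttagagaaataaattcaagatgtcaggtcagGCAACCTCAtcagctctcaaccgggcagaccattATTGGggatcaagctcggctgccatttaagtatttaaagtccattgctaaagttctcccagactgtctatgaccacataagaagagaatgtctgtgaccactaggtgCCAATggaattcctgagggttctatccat
Psma6, second start: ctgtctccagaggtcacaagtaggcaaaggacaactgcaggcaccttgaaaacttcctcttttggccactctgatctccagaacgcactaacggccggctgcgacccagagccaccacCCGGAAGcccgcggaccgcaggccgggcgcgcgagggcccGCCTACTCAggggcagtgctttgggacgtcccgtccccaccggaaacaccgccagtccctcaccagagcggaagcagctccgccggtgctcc
The first window holds a match to the antioxidant response element core and a pair of CCAAT boxes, and the second holds the same core and an ETS core. Over the 33 proteasome windows, 13 (39.4%) held the antioxidant response element core, against 35.2% of all 32851 windows of the table, and 13 (39.4%) held a CCAAT box, against 33.8%. The ETS core was in 11 of 33 (33.3%) and in 6.91% of all windows. Those 11 include the window of the partner gene Psmc3ip, which encodes no subunit, and both windows of Psmc2. All windows include those of genes that hepatocytes do not express, and base composition was not matched. None of the proteasome windows held the direct repeat, which 0.0517% of all windows hold. At so low a share, its absence from 33 windows says nothing about receptor sites at these genes. A match describes letters only and does not show that a factor binds there.

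All 3 immunoproteasome genes were lower with PCN, by small amounts. Psmb9, the interferon-inducible counterpart of Psmb6, went from 94.5 to 83.2, a log2 difference of -0.18 and the lowest of the proteasome genes. Psmb8, the counterpart of Psmb5, went from 661 to 609 (-0.12), and Psmb10, the counterpart of Psmb7, from 424 to 414 (-0.04). The median was -0.12, which is 0.19 below that of the standard core genes. The contrast also sets dimmer against brighter genes. With DMSO the 3 genes were at 661 or less, and the standard core genes at 1323 or more. The part that brightness has in it was not tested. Psmb10 lay within the control probe sets' standard deviation of 0.10. Within the same arrays, the ratio of Psmb9 to Psmb6 was 0.837 times its DMSO value with PCN (-0.26 on the log2 scale), and the ratio of Psmb10 to Psmb7 was 0.917 times (-0.12). Psmb8 could not be paired. At any size, 42.4% of all measured genes were lower, and 3 genes are too few to set against that share. The thymus form Psmb11 was under the limit, at 4.78 and 4.47.

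The immunoproteasome windows are printed because these genes were lower together. Psmb9 is at chr17:34187331-34187580 on the minus strand, Psmb8 at chr17:34197945-34198194 on the plus strand and Psmb10 at chr8:105938393-105938642 on the minus strand.
Psmb9: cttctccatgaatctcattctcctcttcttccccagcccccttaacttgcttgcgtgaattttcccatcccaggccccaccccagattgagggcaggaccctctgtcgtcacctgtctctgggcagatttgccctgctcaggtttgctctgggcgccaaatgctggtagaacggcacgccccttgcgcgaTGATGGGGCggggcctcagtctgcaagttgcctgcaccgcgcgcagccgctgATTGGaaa
Psmb8: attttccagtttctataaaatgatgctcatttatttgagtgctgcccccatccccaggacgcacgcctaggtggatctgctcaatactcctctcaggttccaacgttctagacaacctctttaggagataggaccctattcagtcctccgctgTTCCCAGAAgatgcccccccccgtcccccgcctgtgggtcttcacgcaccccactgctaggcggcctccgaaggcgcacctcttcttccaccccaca
Psmb10: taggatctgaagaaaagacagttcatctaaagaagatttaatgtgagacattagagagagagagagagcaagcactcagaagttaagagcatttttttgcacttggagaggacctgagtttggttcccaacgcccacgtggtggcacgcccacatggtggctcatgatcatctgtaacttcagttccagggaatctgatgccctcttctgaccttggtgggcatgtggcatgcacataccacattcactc
The Psmb9 window holds the antioxidant response element core and a reversed CCAAT box next to the start, and the Psmb8 window holds a STAT core. The Psmb10 window held none of the 6 motifs. IRF cores were found in 2 of the 33 proteasome windows (6.06%, against 2.98% of all), those of Psmd4 and Psmd9, and not in these 3. Psmb9 shares its upstream region with Tap1, a peptide transporter gene read from the opposite strand, whose start lies 226 bases away. On chromosome 17 the order of protein-coding genes is Psmb9, Tap1, Psmb8 and Tap2. The transporter genes between and beside the proteasome genes were nearly level. Tap1 was at 46.4 with DMSO and 48.7 with PCN (0.07), and Tap2 was at 47.0 and 48.3 (0.04). Both were close to the limit of 32 and within the control probe sets' standard deviation of 0.10, so no direction can be read from them.

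Immunoproteasome genes are also strongly expressed by leukocytes, so leukocyte markers were read beside them. Of 10 leukocyte and Kupffer cell markers on the array, 9 were under the limit in both arrays, among them Ptprc (4.37 and 4.88), Cd74 (7.96 and 6.75) and Lyz2 (8.61 and 9.96). The measured one was Cd68, a lysosomal protein, at 1690 and 1626 (-0.06). Endothelial markers were measured for 2 of 6 genes and stellate cell markers for 1 of 6, all of them at intensities under 50. In RNA from pooled cultures, fewer cells of a type and less RNA per cell cannot be told apart.

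The ATPase ring was higher in 3 of 5 measured genes, near the 57.6% of all measured genes that were higher. Psmc4 went from 1210 to 1332 (0.14), Psmc2 from 2323 to 2550 (0.13) and Psmc6 from 1140 to 1194 (0.07). Psmc5 stood at 1918 and 1911 (-0.006), and Psmc3 at 1832 and 1782 (-0.04). The median of the ring was 0.07. The Psmc4 window, shown as that of the ATPase with the largest difference, lies at chr7:28050093-28050342 on the minus strand and held none of the 6 motifs.
Psmc4: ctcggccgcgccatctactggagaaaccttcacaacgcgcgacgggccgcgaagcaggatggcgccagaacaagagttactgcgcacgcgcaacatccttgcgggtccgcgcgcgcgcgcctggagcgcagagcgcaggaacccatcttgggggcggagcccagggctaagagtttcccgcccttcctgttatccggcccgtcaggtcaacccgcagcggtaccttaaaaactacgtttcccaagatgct

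The ATPases are joined in pairs by dedicated chaperones before the base is complete. Psmc4 and Psmc5 form such a pair, with Psmd10 (gankyrin) as chaperone, and differed by 0.14 and -0.006 while Psmd10 was at 624 with DMSO and 630 with PCN (0.01). The sign for Psmd10 turned to -0.001 with quantile normalization and -0.02 with median centring or loess correction. Psmc6 and Psmc3 form another pair, at 0.07 and -0.04, and their chaperone Psmd9 was under the limit. Psmc2 was at 0.13, and Psmd5, the chaperone of its pair, went from 1370 to 1472 (0.10). The largest of these differences, 0.14, compares with the control probe sets' standard deviation of 0.10, and no unequal change within a pair can be read from them. The other base subunits were the scaffold Psmd1, from 2185 to 2278 (0.06), and the ubiquitin receptor Psmd4, from 1757 to 1852 (0.08).

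All 8 lid genes of the rule were measured, and 7 of them were higher, with a median of 0.08, against 57.6% higher among all measured genes. Psmd7, the partner of the deubiquitinating enzyme, went from 1453 to 1607 (0.15), the largest difference among the lid genes of the symbol rule. Psmd14, that enzyme itself, stood at 3633 and 3733 (0.04). The scaffold subunits of the lid lay close together. Psmd6 went from 1527 to 1629 (0.09), Psmd12 from 1145 to 1219 (0.09), Psmd11 from 1843 to 1955 (0.08), Psmd3 from 499 to 526 (0.07) and Psmd13 from 1215 to 1258 (0.05). Psmd8, another scaffold subunit, was at 12289 and 12237 (-0.006). Over base and lid, 12 of 15 genes were higher and 3 lower, with a standard deviation of 0.05. Only Psmd7 of the lid and Psmc4 and Psmc2 of the base lay beyond the control probe sets' standard deviation of 0.10.

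Activators, which open the core gate without the ATPase ring, had no common direction. Psme1, an interferon-inducible activator subunit, went from 1134 to 1240 (0.13), opposite in sign to the immunoproteasome subunits with which it is usually induced. Psme3, the nuclear activator, went from 236 to 220 (-0.10), and Psme3ip1, which encodes a protein that binds it, from 323 to 315 (-0.04). Psme4, a large monomeric activator, was at 1409 and 1406 (-0.003). Psmc3ip, a meiotic recombination gene named for binding an ATPase subunit, was under the limit in both arrays, at 7.84 and 7.41.

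Genes that assemble or accompany the proteasome were mostly higher with PCN. Of 12 measured assembly factors and associated proteins, 11 were higher and 1 lower. Their median was 0.12, against 0.03 for all measured genes, of which 57.6% were higher. The size of 0.32 on the log2 scale was passed by 1 of the 12, near the 11.4% of all measured genes that passed it. That gene was Psmg3, a chaperone of alpha ring assembly, which went from 198 to 264, a 1.33-fold difference (0.42). Psmg2, a second chaperone of that step, went from 289 to 344 (0.25). The remaining chaperones of this family were Psmg4, from 160 to 187 (0.22), and Psmg1, from 570 to 606 (0.09). Pomp, which helps the beta subunits into place, was at 3449 and 3526 (0.03). Sem1, the small subunit of the lid, which falls outside the symbol rule, went from 1562 to 1782 (0.19). The proteasome-bound deubiquitinating enzymes Uchl5 and Usp14 were at 843 and 942 (0.16) and at 169 and 187 (0.15). The one lower gene was Txnl1, a thioredoxin-like protein bound to the regulatory particle, from 2761 to 2729 (-0.02). The rest of the list was Psmf1 (0.06), Ube3c (0.03) and Ecpas (0.02). Like Pomp, Psmg1 and Txnl1, they lay within the control probe sets' standard deviation of 0.10, so their direction cannot be read. In this list, all genes named here other than Psmg3 and Psmg2 were singled out after their values were seen.

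Regulators of proteasome genes had no common direction. NRF1, encoded by Nfe2l1, is the transcription factor that raises proteasome genes when the proteasome is inhibited, and its gene was at 105 with DMSO and 103 with PCN (-0.03). Of 8 measured genes of its control, 3 were higher and 5 lower (median -0.03). Of all measured genes, 57.6% were higher (median 0.03). None of the 8 passed 0.32, a size that 11.4% of all measured genes passed. The 8 genes are too few to set against these shares. Mafg, a DNA-binding partner of the NRF factors, went from 472 to 385 (-0.29), and Syvn1, a ubiquitin ligase of the endoplasmic reticulum, from 206 to 238 (0.21). Nfe2l2, the gene of NRF2, went from 3656 to 3359 (-0.12). Nfe2l1 and Nfe2l2 were singled out after their values were seen.

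On the substrate side, ubiquitin shuttles and partners of the unfolding enzyme VCP were higher in 11 of 14 measured genes (median 0.11), where 57.6% of all measured genes were higher (median 0.03). Ubxn1, a VCP cofactor, went from 516 to 662, a 1.28-fold difference (0.36), and Midn, which carries proteins to the proteasome, from 205 to 242 (0.24). Of 6 listed genes for ubiquitin and its activating enzymes, 5 were not analysed here. The remaining one, Uba6, a ubiquitin-activating enzyme, went from 80.9 to 113, a 1.40-fold difference (0.48).

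Genes that use immunoproteasome products showed little difference. Of 11 measured genes for peptide loading and MHC class I, 5 were higher and 6 lower. The median was -0.009, which became 0.01 with quantile normalization. B2m, the light chain of MHC class I, was at 9559 and 9498 (-0.009). Tapbpl, a peptide editor, went from 389 to 338 (-0.20), and Erap1, which trims peptides, from 75.2 to 83.5 (0.15). Interferon signalling genes were 5 higher and 7 lower of 12 measured (median -0.02). Both lists stand beside 57.6% higher and a median of 0.03 for all measured genes. Irf2 was under the limit with DMSO, at 29.5, and at 43.7 with PCN, so it was at least 1.37-fold higher, and Irf7 went from 207 to 270, a 1.30-fold difference. Irf1, the factor most tied to immunoproteasome induction, was at 73.0 and 69.0 (-0.08). The interferon gamma receptor genes were both lower, Ifngr1 from 860 to 712 (-0.27) and Ifngr2 from 458 to 390 (-0.23). B2m, Tap1, Tap2, Irf1 and the receptor genes were singled out after their values were seen.

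The lid shares its plan of scaffold and deubiquitinase-type subunits with the COP9 signalosome and the translation factor eIF3, and these were read beside it. COP9 genes were higher in 6 of 8, with a median of 0.04 that became -0.003 with loess correction, and Cops4 was the highest at 0.11. All 7 measured eIF3 genes of the list were higher, with a median of 0.11, led by Eif3e, from 2106 to 2495 (0.24). The CCT chaperonin, a folding machine of the cytosol, was likewise higher in 7 of 7 measured genes (median 0.13), led by Cct7, from 2628 to 3028 (0.20). The lid median of 0.08 lies between those of COP9 and eIF3. These medians stand beside 0.03 for all measured genes, 57.6% of which were higher, a median that COP9 nearly equals.

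**Figure D4:**
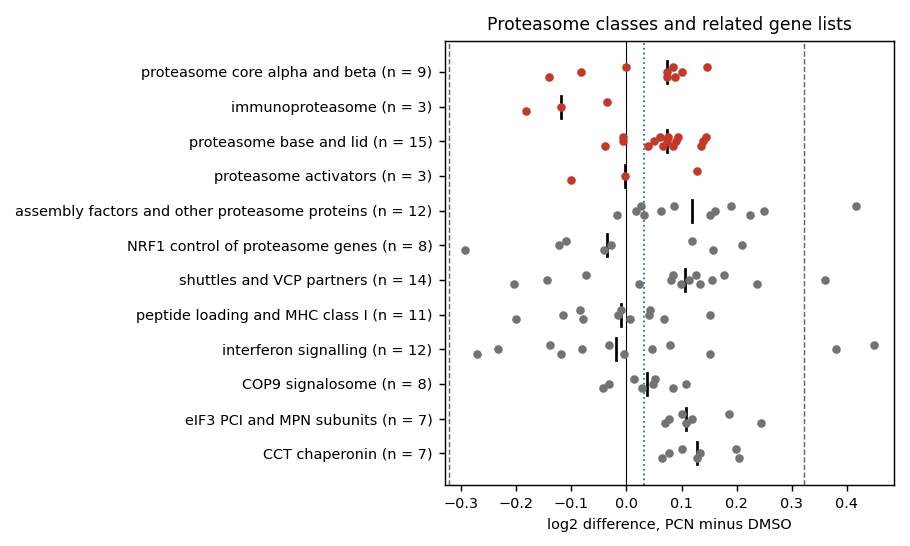
Log2 difference, PCN minus DMSO, of each measured gene in proteasome classes (red) and in related lists (grey), with the median of each as a black bar. The dotted line is the median of all measured genes and the dashed lines mark 0.32 either way. Immunoproteasome genes lie left of 0, and all eIF3 and CCT genes lie right of it.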

How the data were processed

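The table deposited by the authors holds 1 intensity per probe set and array on a linear scale, from 1.13 to 28482. GCRMA 2.2.0 (background correction by probe sequence, normalization between arrays, probe set summary) is named in the submitters' processing notes. It normalizes between arrays, so total RNA per cell does not show in the values, and related genes may share signal. The deposited arrays still differed in distribution, with median intensities of 14.4 (DMSO) and 14.1 (PCN) over all probe sets. Quantile normalization lowered the share of measured genes higher with PCN from 57.6% to 53.7%. Its settings and probe set definition: not given in the sources used here.

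Genes were named through the platform annotation, and all 37 symbols matched RefSeq (GRCm38.p6) by Entrez number. Log2 differences (Python 3.11.15; numpy 2.4.6; pandas 2.3.3) are PCN minus DMSO. Genes under a log2 intensity of 5 in both arrays were left out, and a value under it in 1 array was raised to it. Intensities of different probe sets do not rank transcripts. With 1 array per group no test was run, batch and treatment cannot be told apart, and the array number sets the precision. The calculation was tested on simulated data with planted shifts larger than any proteasome difference here. That checks the code and not the precision of small differences.

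The members and lists were chosen with earlier results of these data known. Named genes were all proteasome genes, the 2 with the largest difference in each list, Cyp3a11, and markers. Alternatives were limits of 4 and 6, no limit, the limit in both arrays, low values as deposited, quantile normalization, median centring, loess (statsmodels 0.14.6, fraction 0.3) and other sizes.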

Additional observations from a re-analysis of the deposited data

How the results depend on the processing

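All alternatives were planned. The median over proteasome genes ranged from 0.03 to 0.07. Under any limit or scaling tried, 0 genes differed by a ratio of 5 to 4. The counts of 0 at 1.5-fold and 2-fold follow from that and are no further check. At 1.1-fold there were 5. All 264 values of single measured genes stayed within the control standard deviation of the reported value, and 1 gene, Psmd10, changed sign, in 3 settings. Changing or dropping the limit, or keeping low values as deposited, could not alter these values. The dimmest measured gene, Psmb9, lay above every limit tried in both arrays. Median centring moved all genes by the same amount. Only quantile normalization and loess could move genes unequally. Most medians of proteasome classes were likewise fixed under those limits. Of 173 medians, 169 stayed within the control standard deviation of the reported value. The other 4 were marker lists with few measured genes. The endothelial median of 0.06 became -0.19 with the limit in both arrays and 0.18 with a limit of 4 or with none, and the stellate median of -0.19 became -0.053 without a limit. The cause was not tested. No replicate could be left out. No paired analysis was possible because there was only 1 array per group. Signal close to the limit of 32, as for Irf2, Tap1 and Tap2, limits what their differences show.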
